A study of Mus musculus with 12 samples.

Results

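The genes followed here, 10 in all, mark hepatic stellate cells or build and remodel the matrix of the liver, and were chosen by name from the 45777 genes of the liver RNA-seq table, which holds a row for each of the 10. They are Lrat, Reln, Colec11, Dcn and Des, which mark stellate cells at rest, Col1a1, Col3a1 and Postn, which are matrix genes, and Timp1 and Hgf, which encode secreted proteins of the injured liver. The table covers 12 livers of male C57BL/6 mice, labelled 10 to 12 weeks old. There were 4 groups of 3 livers: WT mice given vehicle, WT mice given acetaminophen (APAP), Gna12 KO mice given vehicle and Gna12 KO mice given APAP. Per the study's methods, mice were fasted overnight, APAP was injected once into the peritoneum at 300 mg/kg, and the livers were taken 6 h later. APAP is a painkiller that injures hepatocytes when overdosed, and Gna12 encodes the G protein subunit Gα12. The sources used here do not say which part of Gna12 the KO allele lacks. The comparisons ask how these genes differ after APAP under each genotype label, and how they differ between the labels with and without APAP.

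Hepatic stellate cells lie between the sinusoidal endothelium and the hepatocytes and store most of the body's vitamin A as retinyl esters, which the enzyme LRAT makes. In a healthy liver they are quiescent, express reelin, collectin-11, decorin and desmin, and are a main source of hepatocyte growth factor (HGF), the ligand of the receptor MET on hepatocytes. When the liver is injured repeatedly they lose their vitamin A, turn into myofibroblasts and lay down fibrillar collagens, and TIMP1, an inhibitor of matrix metalloproteinases, slows the breakdown of that matrix.

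The total count per liver ranged from 49737950 to 69566079. Gna12 itself was not lower under the KO label: its counts were 1659 to 3550 in WT vehicle livers, 2472 to 4003 in KO vehicle livers, 1193 to 4373 in WT APAP livers and 2489 to 3248 in KO APAP livers, so the counts over the whole gene do not check the label, and the groups are called KO as labelled. Liver 1 of the WT APAP group stood apart, with 4731 normalised CPM (counts scaled to library size) of the haemoglobin gene Hba-a1 against 44.6 to 170 in the other 11 livers. Its summed markers of neutrophils (122 CPM against 0.169 to 18.2 in the other 11), of vascular smooth muscle (46.5 against 5.01 to 18.0) and of platelets (22.6 against 2.75 to 5.05) were also the highest of the series. So were those of hepatocytes (140841 against at most 98649), sinusoidal endothelium (424 against at most 338) and cholangiocytes (75.3 against at most 41.0). Markers of Kupffer cells and of portal fibroblasts and mesothelium were not highest there. The scaling factor behind its CPM was 0.750, against 0.892 to 1.13 in the other 11. Values without this liver stand beside the results that it moved most. WT vehicle liver 2 also differed from the other vehicle livers. Its neutrophil markers summed to 15.5 CPM against 0.169 to 0.972 there, and its Gna12 level was 34.8 CPM against 54.6 to 67.2. Genes that mark quiescent stellate cells summed to 1447 CPM in it, of which 1041 were Steap4, against 427 to 617 in the other vehicle livers. In whole liver, fewer cells of a type and less RNA per cell cannot be told apart.

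Per length of transcript, in the authors' TPM values, the order of the levels was led by Dcn, a small leucine-rich proteoglycan, with a median of 92.2 TPM (62.4 to 126) in the 6 vehicle livers. Colec11, a soluble lectin of the complement system, had a median of 22.6 TPM (17.5 to 30.7) and Reln, a large extracellular glycoprotein, one of 5.75 TPM (4.95 to 10.3). The ranges of these 3 genes over the vehicle livers did not overlap each other, but that of Reln overlapped those of Hgf and Col3a1 (up to 6.10 and 9.80 TPM). Below them, Hgf (3.11 TPM), Col3a1 (2.85), Lrat (2.28), Postn (2.22) and Des (1.60) had medians close together, and each range overlapped that of its neighbour in this order, although those of Hgf (2.37 to 6.10) and Des (1.13 to 1.92) were apart. Col1a1 (0.659 TPM) came next, and Timp1 was last, listed at 0 in 4 of the 6 vehicle livers and at no more than 0.130 TPM in any of them. After APAP the median of Timp1 was 0.761 TPM, above that of Col1a1 (0.532 TPM), and the highest gene was still Dcn with 100.2 TPM. All 10 genes passed the filter on low counts when the 12 livers were fitted together, and Timp1 did not pass it among the vehicle livers alone.

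**Figure D1:**
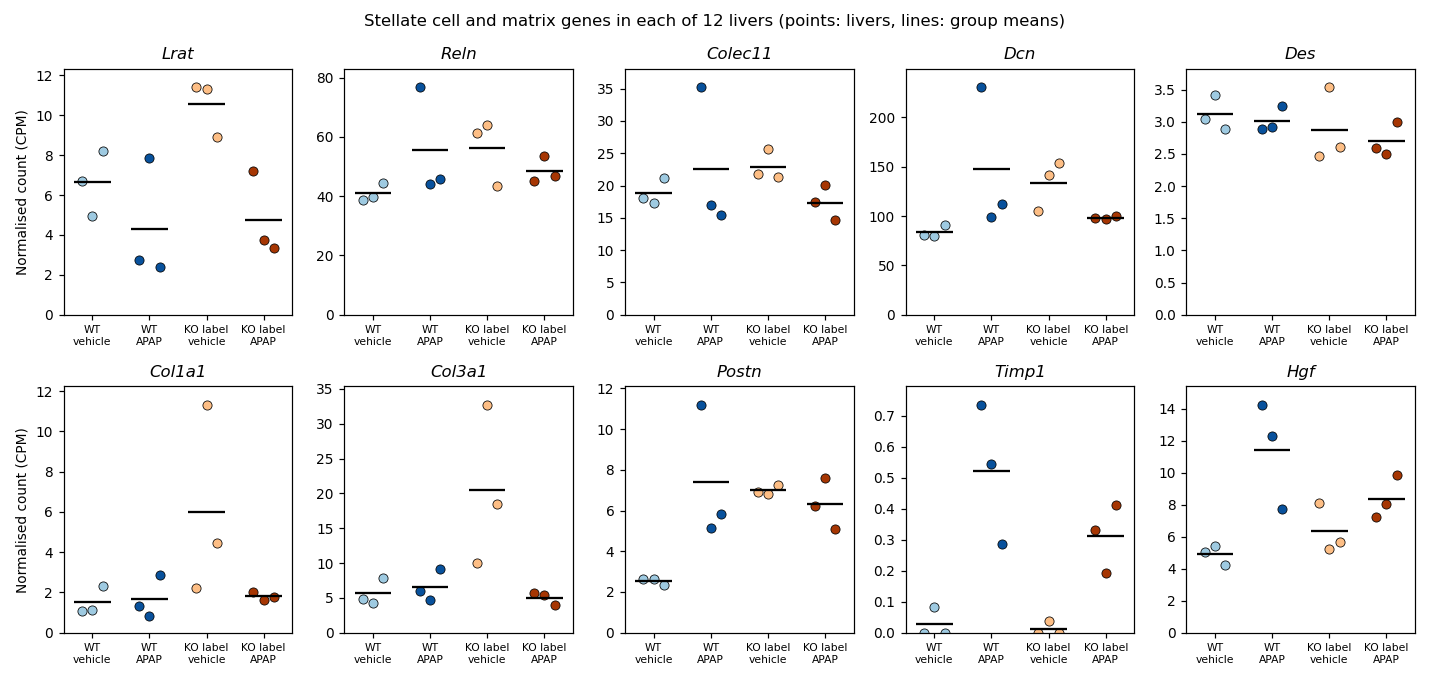
Normalised counts scaled to library size (CPM, vertical axis, from 0) of the 10 genes in each liver, in 4 groups of 3 on the horizontal axis. Points are livers in the order of their numbers and lines are group means. Timp1 is near 0 in every vehicle liver, and Postn is low in WT vehicle livers alone. Col3a1 is higher in each KO vehicle liver than in any liver of the other groups. Col1a1 is highest in KO vehicle livers 2 and 3, while KO vehicle liver 1 lies within the range of the WT livers. Liver 1 of the WT APAP group is the highest for Reln, Colec11, Dcn and Postn.

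The promoters of 8 of the 10 genes are in the RefSeq promoter table of GRCm38.p6, which gives 300 bases per start site, from 250 before it to 50 after it. Dcn and Col1a1 are not among the 8. Short stretches of 4 of them are shown, those of genes whose values differed between groups and that hold a motif before a start site. Capitals mark the letters of a motif searched on both strands.
Timp1, chrX:20869964-20869993, plus strand, CCAAT read on the opposite strand: gagaaagaagttATTGGcttcagccacagg
Lrat, chr3:82904038-82904067, minus strand, CCAAT: gaacgcccgtgcCCAATccgtgttctccgg
Col3a1, chr1:45311409-45311438, plus strand, TATAAA: actaatgcatgtTATAAAcatatgcatagg
Postn, second start site, chr3:54361069-54361098, plus strand, TATAAA: agcccagagctaTATAAActcagctctcca
The letters lie 190 bases before the start site in Timp1, 81 in Lrat, 117 in Col3a1 and 26 in Postn. CCAAT was present in 37.4% of the 32851 promoters of the table and TATAAA in 13.6%, so such matches are common. The other motifs searched were TGANTCA (in 7.81% of all promoters), TGACGTCA (1.79%), TTCNNNGAA (8.3%) and the CArG box (1.63%). Among the 8 genes the only match to these was TTCNNNGAA in Colec11. Hgf and the first start site of Postn had CCAAT after the start site, where no sequence is shown. A match is a description of the letters alone.

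Timp1, the inhibitor of matrix metalloproteinases, rose after APAP under both genotype labels from next to nothing. It lies on chromosome X at 20870166 to 20874737 (GRCm38.p6). Its raw counts were 0, 4 and 0 in WT vehicle livers and 37, 41 and 18 in WT APAP livers, and they were 0, 2 and 0 in KO vehicle livers and 19, 12 and 29 in KO APAP livers. Each of the 6 APAP livers was above each of the 6 vehicle livers. In 5 of the 6 vehicle livers the count was at or under 3, the limit that a count of 0 allows in 1 library. The summed counts gave a ratio of APAP to vehicle of 21.1 (exact 95% interval 9.48 to 58.4, counting error only) over all livers, 19.2 (7.27 to 72.0) in WT and 24.7 (6.53 to 208) under the KO label. In the fit over all 12 livers the log2 fold change was 4.26 ± 0.73 (SE), with an adjusted p of 0.00122 by edgeR's quasi-likelihood test. Among KO livers alone it was 4.40 ± 0.87 (adjusted p = 0.0102). In WT alone it was 4.18 ± 1.05, which missed the threshold of 0.05 (adjusted p = 0.0916). The interaction, which is the WT change minus the KO change, was -0.22 ± 1.22, with an error too wide to call the changes alike. It rested on the few vehicle counts: without WT vehicle liver 2 it was 3.53 and without KO vehicle liver 2 it was -3.02, since the WT change was then 7.93 and the KO change 7.22, fitted values against vehicle livers that were all at 0, which depend on the prior count and are no bound. Timp1 lies inside the span of Syn1, a neuronal gene on the opposite strand that shares 0 exon bases with it in GENCODE vM21. Syn1 had 3 to 16 counts in vehicle livers and 6 to 20 in APAP livers, and whether the counting used strand is not given in the sources used here.

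Hgf, the growth factor that drives hepatocytes into division through MET, rose after APAP over all livers. It lies on chromosome 5 at 16553495 to 16619439. Its CPM values were 5.03, 5.43 and 4.23 in WT vehicle livers and 14.2, 12.3 and 7.75 in WT APAP livers. In KO livers they were 8.13, 5.22 and 5.66 with vehicle and 7.25, 8.03 and 9.85 after APAP. The WT groups were apart, while KO vehicle liver 1 lay above 2 of the 3 KO APAP livers. The log2 fold change was 0.81 ± 0.21 over all livers (1.75-fold, adjusted p = 0.0115 by edgeR). It stayed past the threshold when any single liver was left out, with a highest adjusted p of 0.0324, and without liver 1 of the WT APAP group it was 0.69 (adjusted p = 0.0157). Within WT it was 1.23 ± 0.27 (adjusted p = 0.0656) and within the KO label 0.41 ± 0.21 (adjusted p = 0.191). The difference between these changes, 0.82 ± 0.35, had an unadjusted p of 0.0367 and an adjusted p of 0.872.

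Lrat, which esterifies vitamin A for storage, was lower after APAP. It lies on chromosome 3 at 82892582 to 82903974. Its CPM values were 6.70, 4.97 and 8.22 in WT vehicle livers and 2.74, 7.84 and 2.39 in WT APAP livers, so liver 2 of the WT APAP group stayed within the vehicle range. Under the KO label they were 11.4, 11.3 and 8.88 with vehicle and 7.22, 3.74 and 3.33 after APAP, and these groups did not overlap. Over all livers it fell by 0.88 on the log2 scale (SE 0.30, 1.84-fold, adjusted p = 0.0493). That call sits at the threshold: it held in 3 of the 12 fits that left out a liver, and its highest adjusted p among them was 0.119, without liver 3 of the KO APAP group. In KO livers the fall was 1.14 ± 0.29 (2.20-fold, adjusted p = 0.0258) and was past the threshold in 1 of 6 such fits, with an adjusted p of up to 0.0818. In WT the value was -0.61 ± 0.47 (adjusted p = 0.539), and -1.38 without WT APAP liver 2 (adjusted p = 0.0690). The interaction was 0.54 ± 0.61 (adjusted p = 0.900), and -0.21 without that liver. In WT, under the KO label and over all livers, none of the alternatives run gave Lrat a positive change.

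Col1a1 and Col3a1 encode chains of collagens I and III, the main fibrillar collagens of scar. Both were lower after APAP under the KO label, from KO vehicle levels that were high and uneven. Col1a1, on chromosome 11 at 94936224 to 94953042, had 2.20, 11.3 and 4.46 CPM in KO vehicle livers and 2.01, 1.62 and 1.78 CPM in KO APAP livers. In WT livers it had 1.09, 1.13 and 2.32 CPM with vehicle and 1.33, 0.850 and 2.85 CPM after APAP. The KO vehicle livers lay above the KO APAP livers, though liver 1 by little, and the WT groups overlapped.
Col3a1, on chromosome 1 at 45311538 to 45349706, had 10.0, 32.7 and 18.5 CPM in KO vehicle livers and 5.75, 5.40 and 3.93 CPM in KO APAP livers. In WT livers it had 4.85, 4.26 and 7.89 CPM with vehicle and 6.00, 4.64 and 9.14 CPM after APAP. Each KO vehicle liver was above each of the other 9 livers, and the other 3 groups overlapped.
Under the KO label Col3a1 fell by 2.01 on the log2 scale after APAP (SE 0.38, 4.03-fold, adjusted p = 0.00899 by edgeR), and the call held in 6 of 6 fits that left out a liver. Col1a1 fell by 1.72 (SE 0.52, 3.29-fold, adjusted p = 0.0451), and the call held in 1 of 6 such fits. Without KO vehicle liver 2 its fall was 0.88, with an adjusted p of 0.129. In WT the changes were 0.23 ± 0.34 for Col3a1 (adjusted p = 0.762) and 0.16 ± 0.53 for Col1a1 (adjusted p = 0.906). The interaction was 2.24 ± 0.57 for Col3a1 (unadjusted p = 0.00195) and 1.88 ± 0.81 for Col1a1 (unadjusted p = 0.0388), and both had an adjusted p of 0.872. Without KO vehicle liver 2 the Col1a1 interaction was 1.03 ± 0.69. The pair kept close to each other from liver to liver within groups, with r = 0.95 over 12 livers after removing group means and 0.92 without KO vehicle liver 2, as a description.

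Postn encodes periostin, a matricellular protein that binds collagen and integrins, and it was low in WT vehicle livers alone. It lies on chromosome 3 at 54359267 to 54391041. Its CPM values were 2.65, 2.62 and 2.34 in WT vehicle livers, against 11.2, 5.17 and 5.85 in WT APAP livers. They were 6.94, 6.81 and 7.25 in KO vehicle livers and 6.21, 7.61 and 5.11 in KO APAP livers. The 9 livers of the other 3 groups all lay above the highest WT vehicle liver, and those 3 groups overlapped one another.
After APAP the log2 fold change was 1.56 ± 0.34 in WT (2.94-fold, adjusted p = 0.0653) and -0.14 ± 0.17 under the KO label (adjusted p = 0.595). With vehicle, WT minus KO was -1.46 ± 0.16 (adjusted p = 0.0718, unadjusted p = 2.35e-05). None of these passed the threshold in edgeR's fits of 6 livers. DESeq2's Wald test called the WT change and the vehicle difference, and edgeR with all 12 livers in one fit called the WT change. By edgeR the WT change was 1.12 without liver 1 of the WT APAP group (adjusted p = 0.0603). Without liver 2 of that group it was 1.74 (adjusted p = 0.0484). The interaction of 1.69 ± 0.38 had the smallest unadjusted p of the 10 genes, 0.000821, with an adjusted p of 0.872.

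**Figure D2:**
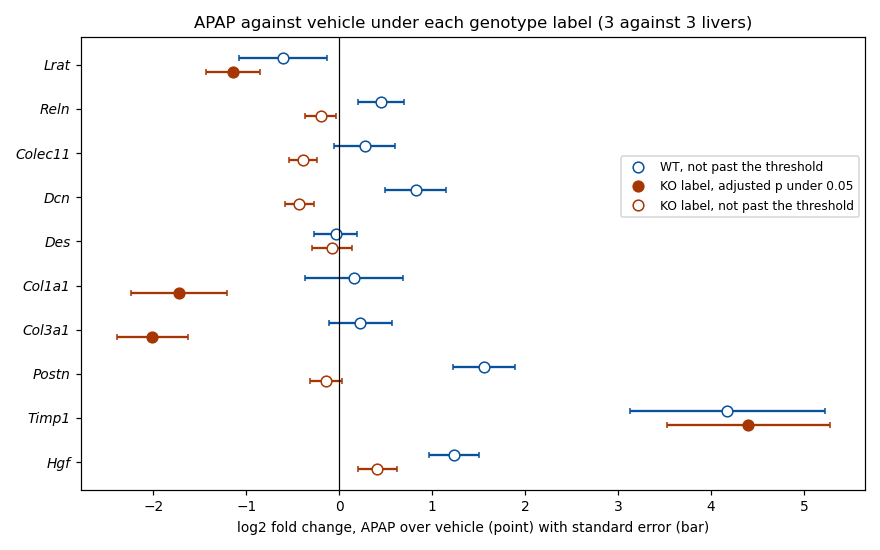
Log2 fold change of APAP over vehicle (horizontal axis) with its standard error for each of the 10 genes (vertical axis), in WT (blue, upper of each pair) and under the KO label (brown, lower), 3 against 3 livers each. Filled points have an adjusted p under 0.05. Timp1 lies above 4 in both, Col1a1 and Col3a1 lie near 0 in WT and at -1.72 and -2.01 under the KO label, and Postn lies at 1.56 in WT and -0.14 under the KO label.

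Dcn, Reln and Colec11, 3 secreted products of quiescent stellate cells, had a higher mean in KO vehicle than in WT vehicle livers. In CPM their highest value was in WT APAP liver 1, but in the authors' TPM it was not. There Dcn had 123 TPM in that liver against 126 in KO vehicle liver 2. Reln had 6.54 TPM against 10.3 in KO vehicle liver 1, and Colec11 had 24.9 against 30.7 in KO vehicle liver 1. Dcn, on chromosome 10 at 97479500 to 97518163, had 80.9, 80.3 and 90.8 CPM in WT vehicle livers and 231.1, 98.9 and 112 CPM in WT APAP livers. It had 105, 141 and 154 CPM in KO vehicle livers and 97.9, 96.6 and 99.97 CPM in KO APAP livers. The WT groups were apart with APAP higher, and the KO groups were apart with APAP lower.
The log2 fold change of Dcn was 0.82 ± 0.33 in WT (adjusted p = 0.243) and -0.43 ± 0.16 under the KO label (adjusted p = 0.0804). Without WT APAP liver 1 the value in WT was 0.33 (adjusted p = 0.284). The interaction was 1.25 ± 0.39 (unadjusted p = 0.00699, adjusted p = 0.872).
Reln, on chromosome 5 at 21884454 to 22344705, had 38.6, 39.8 and 44.5 CPM in WT vehicle livers and 76.9, 44.0 and 45.7 CPM in WT APAP livers. It had 61.3, 64.0 and 43.4 CPM in KO vehicle livers and 45.2, 53.7 and 46.9 CPM in KO APAP livers. Both pairs of groups overlapped. Its change after APAP was 0.45 ± 0.25 in WT (adjusted p = 0.384), which was 0.13 without WT APAP liver 1, and -0.20 ± 0.17 under the KO label (adjusted p = 0.415).
Colec11, on chromosome 12 at 28594172 to 28623458, had 18.0, 17.3 and 21.1 CPM in WT vehicle livers and 35.3, 17.0 and 15.4 CPM in WT APAP livers. It had 21.8, 25.6 and 21.3 CPM in KO vehicle livers and 17.4, 20.1 and 14.6 CPM in KO APAP livers, and only the KO groups were apart. Its change was 0.27 ± 0.32 in WT (adjusted p = 0.696), and this turned to -0.22 without WT APAP liver 1 (adjusted p = 0.510). In KO livers it was -0.39 ± 0.15 (adjusted p = 0.0913). Over all livers it was -0.07 ± 0.21 (adjusted p = 0.834), and -0.31 without WT APAP liver 1 (adjusted p = 0.0458). Markers of neutrophils, erythroid cells, smooth muscle, platelets, hepatocytes, sinusoidal endothelium and cholangiocytes were all at their highest CPM in that same liver. Their part in these values was not tested.

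Des, the intermediate filament of stellate and smooth muscle cells, was the most even of the 10 genes. It lies on chromosome 1 at 75360292 to 75368579. Its CPM values were 3.04, 3.42 and 2.90 in WT vehicle livers, 2.88, 2.92 and 3.24 in WT APAP livers, 2.47, 3.54 and 2.61 in KO vehicle livers and 2.59, 2.49 and 3.00 in KO APAP livers. All 4 groups overlapped. The change after APAP over all livers was -0.07 ± 0.14 on the log2 scale (adjusted p = 0.748), and the values in WT (-0.04 ± 0.23) and under the KO label (-0.08 ± 0.21) were within their errors of 0. The gene Gm15179 overlaps 220 exon bases of Des on the opposite strand and had 0 counts in every liver.

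Counted together, the calls among the 10 genes after APAP are set beside the share of all genes tested. In WT livers 0 of 10 passed the adjusted threshold, where 2.05% of the 15693 genes tested did, while 4 of 10 were higher at an unadjusted p under 0.05, against 10.7% of all genes, and DESeq2's Wald test called 3 of 10, against 9.03%. Of the 10, 4 had WT groups that did not overlap in CPM with APAP higher (Dcn, Postn, Timp1 and Hgf), against 12.9% of all genes tested. Under the KO label 4 of 10 were called, Timp1 higher and Lrat, Col1a1 and Col3a1 lower, where 22.6% of 15665 genes were. The KO groups were apart for 6 of 10, a share to be read against 42.8% of all genes. Over all livers 3 of 10 were called (Timp1 and Hgf higher, Lrat lower), close to the 25.4% of all 16509 genes, and 1 of 10, Timp1, had 6 against 6 livers apart, where 12.5% did. The median log2 change of the 10 genes was 0.36 in WT, -0.30 under the KO label and 0.02 over all livers, beside medians of 0.03, -0.02 and 0.01 over all genes tested. The 2 genotype labels did not share livers in these comparisons, so the WT and KO values are from separate animals.

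With vehicle alone, 8 of the 9 genes tested were lower in WT than in KO livers, and none passed the adjusted threshold by edgeR. Des was the exception, with a WT minus KO difference of 0.12 ± 0.22 on the log2 scale. Markers of some other cell types leaned the same way: 8 of 9 Kupffer cell markers (median -0.38), 7 of 7 of portal fibroblasts and mesothelium (median -0.39) and 5 of 6 of smooth muscle (median -0.33) were below 0, none with an unadjusted p under 0.05. Their summed levels in WT and KO vehicle livers were 128 to 202 and 168 to 283 CPM, 9.70 to 17.1 and 13.9 to 17.2 CPM, and 5.01 to 6.78 and 6.54 to 8.18 CPM, and their part in the result was not tested. Erythroid markers (4 of 5 below 0, median -0.74) and sinusoidal endothelial markers (6 of 10, median -0.20) also leaned lower. Other lists leaned higher in WT: 5 of 8 hepatocyte markers (median 0.13), 3 of 5 cholangiocyte markers (median 0.11) and 2 of 2 platelet markers (median 0.50) were above 0. At an unadjusted p under 0.05, 6 of the 9 stellate cell and matrix genes tested were lower in WT, against 4.31% of all 15262 genes: Postn, Col3a1, Dcn, Col1a1, Lrat and Reln. The differences, WT minus KO, were -1.85 ± 0.43 for Col3a1 (KO vehicle livers 3.59-fold higher), -1.98 ± 0.60 for Col1a1, -0.67 ± 0.16 for Dcn, -0.67 ± 0.21 for Lrat and -0.46 ± 0.17 for Reln, with adjusted p-values from 0.468 to 0.611. In 5 of 9 the livers of the groups did not overlap and were lower in WT (Lrat, Colec11, Dcn, Col3a1 and Postn), where 7.46% of all genes did so. Few genes of any kind were called in this comparison, 0.0262% of those tested. DESeq2's Wald test called 4 of the 9 (Dcn, Col1a1, Col3a1 and Postn), against 0.997% of all genes. Without KO vehicle liver 2, in which both collagens were highest, Col3a1 was at -1.33 and Col1a1 at -1.13, and 4 of 9 kept an unadjusted p under 0.05.

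After APAP no difference between the labels was detectable in any of the 10 genes. By edgeR, 0 of 10 passed the adjusted threshold, which 0.0309% of 16174 genes passed, and 0 of 10 had an unadjusted p under 0.05, against 3.31% of all genes. DESeq2's Wald test called 0 of 10 and 0.180% of all genes. The groups overlapped in all 10, where 8.73% of all genes had groups apart. The WT minus KO values ran from -0.13 ± 0.51 for Lrat to 0.75 ± 0.51 for Timp1. Col3a1 was at 0.40 ± 0.29 and Postn at 0.25 ± 0.33, and a p that misses the threshold does not show the labels to be alike. Without WT APAP liver 1 the Dcn value of 0.61 ± 0.32 became 0.11 and the Timp1 value became 0.42, while those of Postn (-0.19), Reln (-0.11), Colec11 (-0.10), Lrat (0.11) and Col1a1 (0.03) had the other sign.

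The test of the difference itself, the interaction, called 0 of 10 and 0% of all 16509 genes, the smallest adjusted p over all genes being 0.847. At an unadjusted p under 0.05 the WT change lay above the KO change in 5 of 10 (Postn, Col3a1, Dcn, Hgf and Col1a1), which 3.30% of all genes did. The median over the 10 genes was 0.74, beside 0.02 over all genes. An effect past the threshold under the KO label and not in WT is therefore not shown to differ between them.

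Under the KO label the other collagens moved in part with Col1a1 and Col3a1. Of 15 collagen genes, the list that holds both, 8 were called after APAP under the KO label, against 22.6% of all genes. Of the 8, 7 were lower and 1 higher, and 4 of the 15 had a change above 0. The lower ones beside the pair were Col5a1, Col6a1, Col6a2, Col6a3 and Col15a1, by between 1.03 (Col5a1, adjusted p = 0.0255) and 1.99 (Col15a1, adjusted p = 0.00540) on the log2 scale. Col12a1, a fibril-associated collagen, was the one that rose, by 0.93 ± 0.25 (adjusted p = 0.0308). Without KO vehicle liver 2 or KO APAP liver 3, 3 of the 15 were called. Over all livers 4 of 15 were called, near the 25.4% of all genes, and 11 of 15 had a change below 0. Col12a1 (1.38), Col4a1 (0.94) and Col4a2 (0.71) were higher and Col6a3 (-1.03) was lower. In WT 10 of 15 had a change above 0. The 4 with an unadjusted p under 0.05 were all higher, where 10.7% of all genes were. In WT, where 2.05% of all genes were called, the 1 call was Col4a2 of the basement membrane, at 1.26 ± 0.24 (adjusted p = 0.0448). It held in 1 of 6 fits without single livers, with an adjusted p of 0.174 without WT vehicle liver 3. Its partner Col4a1 had 1.35 ± 0.27 (adjusted p = 0.0531). With vehicle, 13 of 15 were lower in WT at an unadjusted p under 0.05, against 4.31% of all genes, led by Col4a2 (-0.96 ± 0.16, unadjusted p = 0.000376). By edgeR 0 of 15 passed the adjusted threshold, while DESeq2's Wald test called 3, against 0.997% of all genes. Without KO vehicle liver 2 the 13 became 8.

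**Figure D3:**
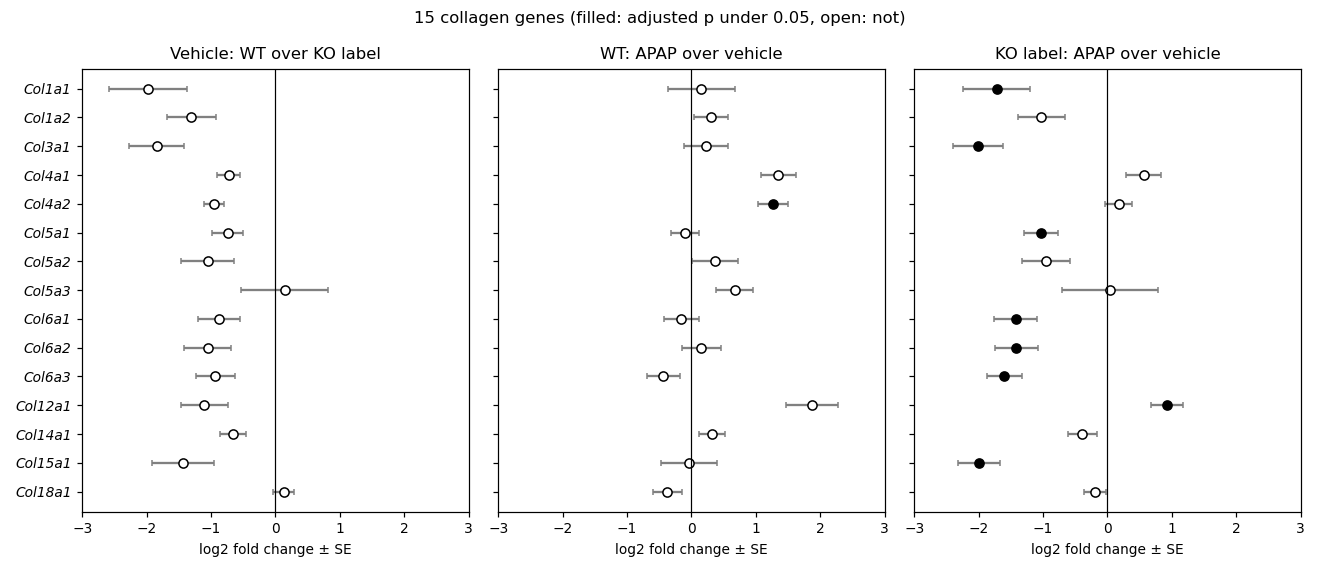
Log2 fold change with its standard error (horizontal axis) of 15 collagen genes (vertical axis) in 3 comparisons: WT over KO label with vehicle (left), APAP over vehicle in WT (middle) and APAP over vehicle under the KO label (right), 3 against 3 livers each. Filled points have an adjusted p under 0.05. In the left panel 13 of 15 lie below 0 and none is filled, and in the right panel 7 filled points lie below 0 and 1, Col12a1, above.

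Timp1 belongs with the matrix proteases and their inhibitors, and these were, of the 11 pathway lists, the one with the largest share of calls over all livers. Of 18 genes tested 10 were called, 9 higher and 1 lower, against 25.4% of all genes. Adamts1, a protease that cleaves proteoglycans, rose by 2.90 ± 0.40 (adjusted p = 0.000322), Mmp12, macrophage elastase, by 2.77 ± 0.52 (adjusted p = 0.00216) and Mmp13, a collagenase, by 4.29 ± 0.89 (adjusted p = 0.00371). Adamts4 rose by 2.07 ± 0.51 (adjusted p = 0.00977). Mmp15, a membrane-bound metalloproteinase, fell by 1.25 (SE 0.22, adjusted p = 0.00127). The count ranged from 7 to 12 when single livers were left out. In WT alone 0 of 17 were called by edgeR, against 2.05% of all genes, and 6 by DESeq2's Wald test, against 9.03%. At an unadjusted p under 0.05 there were 9 of 17, of which 8 were higher, where 10.7% of all genes were higher. Under the KO label 7 of 16 were called, against 22.6% of all genes, with 3 left without KO vehicle liver 2 or KO APAP liver 3.

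Dcn and Postn belong to the proteoglycans and matricellular proteins. Of these 3 of 23 were called over all livers, all higher, a smaller share than the 25.4% of all genes. The 3 were Ccn1, a secreted integrin ligand, at 5.71 ± 0.51 (adjusted p = 1.1e-05), Tnc, tenascin-C, at 2.096 ± 0.42 (adjusted p = 0.00315) and Thbs1, thrombospondin-1, at 4.70 ± 1.00 (adjusted p = 0.00448). Nid1 (1.13 ± 0.40, adjusted p = 0.0548) and Ccn2 (1.57 ± 0.58, adjusted p = 0.0640) did not pass. With vehicle, 12 of 22 genes of the list had an unadjusted p under 0.05, all lower in WT, against 4.31% of all genes. The smallest p was that of Postn and the next that of Fbn1, fibrillin-1 (-1.26 ± 0.26, adjusted p = 0.397). None passed the adjusted threshold by edgeR, and without KO vehicle liver 2 the 12 became 6.

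Of 26 genes that mark quiescent stellate cells, a list that holds 6 of the 10 genes, 4 were called over all livers, a smaller share than the 25.4% of all genes. Beside Hgf and Lrat these were Vipr1, a neuropeptide receptor, which fell by 0.40 (SE 0.10, adjusted p = 0.0138), and Pth1r, the parathyroid hormone receptor, which fell by 0.85 (SE 0.26, adjusted p = 0.0280). The 4 became 2 without WT vehicle liver 3, WT APAP liver 3, KO vehicle liver 1 or KO vehicle liver 2. All 26 were detected well enough to be tested, so the markers of the cell type were present in these livers. Steap4, a metalloreductase on that list, reached 1041 CPM in WT vehicle liver 2 against 30.7 to 157 CPM in the other livers. Of 18 myofibroblast genes 4 were called, also under the 25.4%, all higher: Timp1, Tagln (3.22 ± 0.80, adjusted p = 0.0107), Tpm1 (0.81 ± 0.20, adjusted p = 0.0106) and Pdgfra (0.73 ± 0.14, adjusted p = 0.00249). Tagln, the actin-binding transgelin, is also the highest of the smooth muscle markers, whose sum was highest in WT APAP liver 1, and its rise was 1.94 without that liver. Portal fibroblast and mesothelial markers gave 0 calls of 11 over all livers, with a summed level of 9.53 to 17.2 CPM over the 12 livers.

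Around Lrat, 8 of 20 retinoid genes were called over all livers, 3 higher and 5 lower, against 25.4% of all genes. Dhrs9, a retinol dehydrogenase, rose by 3.15 ± 0.52 (adjusted p = 0.000872), Bco1, which cleaves beta-carotene, by 1.39 ± 0.31 (adjusted p = 0.00616) and Rdh11, a retinal reductase, by 0.41 ± 0.09 (adjusted p = 0.00702). Rdh16 fell by 0.85 (SE 0.21, adjusted p = 0.0101) and Ces1d, a retinyl ester hydrolase, by 0.79 (SE 0.20, adjusted p = 0.0103).

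Around Hgf, 4 of 15 genes were called over all livers, a share near the 25.4% of all genes, with Hgf the one that rose. Hpn, hepsin, a protease that activates pro-HGF, fell by 0.49 (SE 0.10, adjusted p = 0.00362), Gab1, the docking protein below MET, by 0.62 (SE 0.15, adjusted p = 0.00851) and Spint2, an inhibitor of HGF activators, by 0.36 (SE 0.11, adjusted p = 0.0291), which held in 5 of 12 fits without single livers. St14, matriptase, was at 1.46 ± 0.54 (adjusted p = 0.0628), and Met, the receptor, at -0.37 ± 0.19 (adjusted p = 0.178).

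Around Reln, 2 of 9 genes were called over all livers, near the 25.4% of all genes, both receptors of reelin that also bind other ligands. Lrp8 rose (adjusted p = 0.00496), with counts of 13 to 46 in WT APAP livers and 21 to 91 in KO APAP livers against 0 in all 3 WT vehicle livers and 0 to 12 in KO vehicle livers. Vldlr fell by 1.14 (SE 0.29, adjusted p = 0.0124). Around Colec11, 3 of 10 genes of the lectin complement pathway were called, again near that share. Colec12, a membrane collectin, rose by 1.10 ± 0.16 (adjusted p = 0.000454), Masp2, the serine protease that collectins activate, fell by 0.67 (SE 0.09, adjusted p = 0.000262) and C2 fell by 0.83 (SE 0.12, adjusted p = 0.000393).

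TGF-beta is the best known driver of collagen genes in stellate cells. Of 25 genes of its pathway 9 were called over all livers, all higher, against 25.4% of all genes. Tgif1, a corepressor of SMADs, rose by 1.75 ± 0.19 (adjusted p = 5.14e-05) and the receptor Tgfbr1 by 0.64 ± 0.09 (adjusted p = 0.000430). Skil, another corepressor, rose by 1.09 ± 0.19 (adjusted p = 0.00122) and Smad3, a signal transducer, by 0.89 ± 0.19 (adjusted p = 0.00525). Under the KO label 7 of 25 were called, all higher, a share near the 22.6% of all genes. Of the enzymes that process collagen, 1 of 15 was called over all livers, a smaller share than the 25.4% of all genes. It was Plod1, a lysyl hydroxylase, which fell by 0.37 (SE 0.10, adjusted p = 0.0211), a call that held in 9 of 12 fits without single livers.

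**Figure D4:**
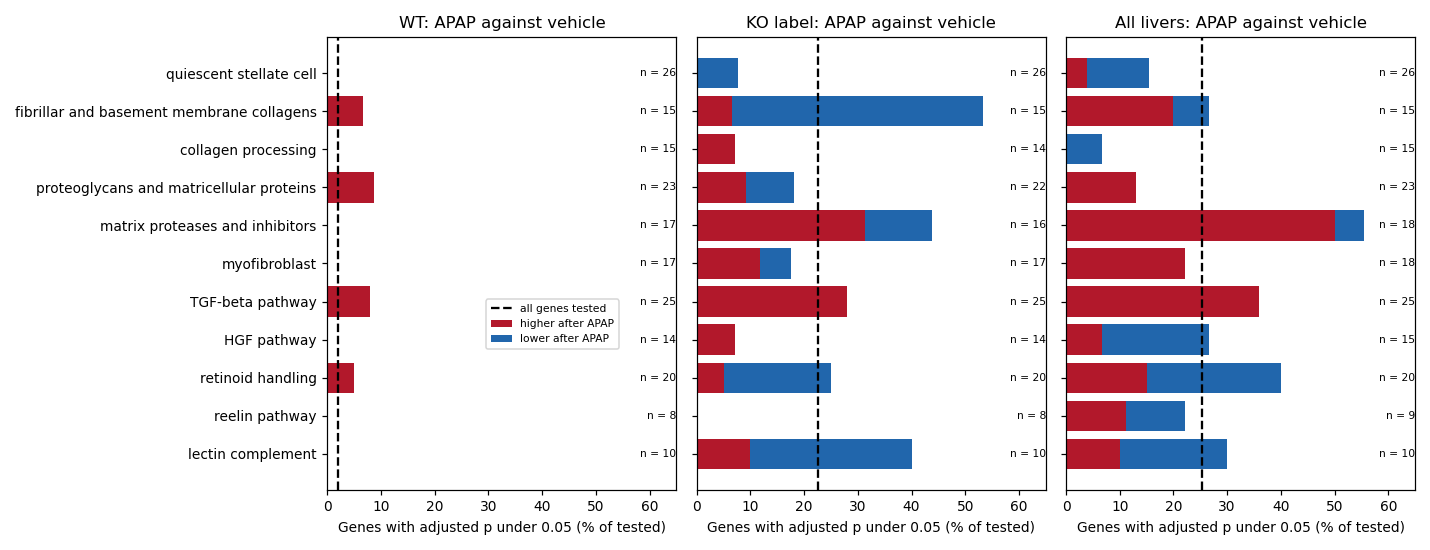
Share of the tested genes of each of 11 lists with an adjusted p under 0.05 (horizontal axis, percent of the n tested), higher (red) or lower (blue) after APAP, in WT, under the KO label and over all livers. The dashed line is the share among all genes tested, 2.05%, 22.6% and 25.4%. Collagens under the KO label are mostly lower, and matrix proteases and the TGF-beta pathway over all livers are mostly or wholly higher.

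From liver to liver, the 10 genes fell into loose sets. Over 12 livers and after removing group means from log2 CPM, r was 0.87 for Colec11 and Postn, 0.86 for Reln and Colec11, 0.83 for Colec11 and Dcn and 0.78 for Dcn and Postn, all in the same libraries. These values rested on WT APAP liver 1: over the 11 livers without it they were 0.39, 0.57, 0.11 and -0.03. Hgf ran against the collagens within groups, with r = -0.84 to Col3a1 and -0.79 to Col1a1, and -0.93 and -0.87 without that liver. Correlations over so few livers are given as a description only.

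**Figure D5:**
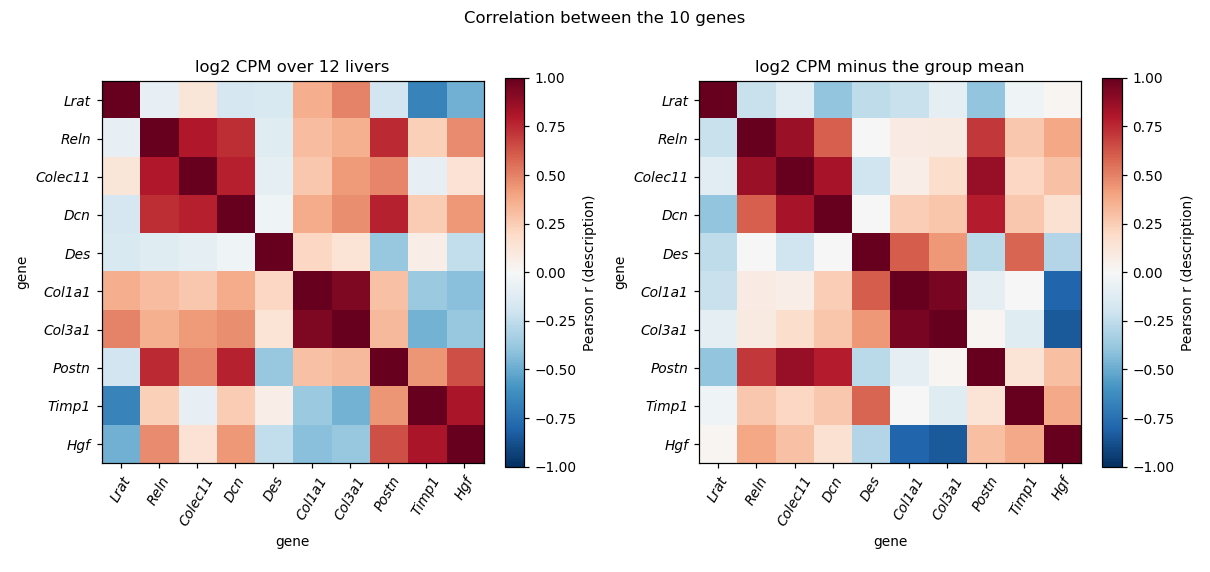
Pearson correlation between the 10 genes over 12 livers, from log2 CPM (left) and after removing each group's mean (right), on a colour scale from -1 (blue) to 1 (red). Col1a1 with Col3a1 is at 0.95 in the right panel, Reln, Colec11, Dcn and Postn form a red block, and Hgf with Col3a1 is at -0.84.

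Outside the 10 genes, those whose log2 CPM over the 12 livers was most like Timp1 were the tubulins Tubb2b (r = 0.97) and Tubb2a (r = 0.96) and the transcription factor Klf6 (r = 0.96). For Hgf they were the cytokine receptor chain Csf2rb (r = 0.95), Bcl2a1a (r = 0.92) and Kctd12 (r = 0.92). For Col1a1 they were Col1a2, the other chain of collagen I (r = 0.92), Gpsm1 (r = 0.90) and Col5a2 (r = 0.88), and for Lrat they were Gm39770 (r = 0.96), Bmf (r = 0.96) and Tnfrsf14 (r = 0.96). After removing group means Col1a1 was nearest to Por (r = 0.96), Col6a2 (r = 0.93) and Gpr63 (r = 0.93), Timp1 to Agpat4 (r = 0.95), Hgf to Card9 (r = 0.94) and Lrat to Gm39770 (r = 0.96). All these genes were measured in the same libraries, and each is the nearest of all genes tested.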

How the data were processed

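Poly-A RNA of 12 mouse livers was sequenced in pairs of reads with a stranded kit. Per the labels, the authors' processing named FastQC 0.11.7, Trimmomatic 0.38, HISAT2 2.1.0, Bowtie2 2.3.4.1 and StringTie 2.1.3b with the mm10 build. The authors deposited 1 table with 3 measures per liver: raw read counts, FPKM values (not used here) and TPM values. Groups came from the sample labels, and 0 columns were left unmapped. No source used here ties the livers to separate litters or days, so p-values measure the spread between these samples.

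Counts were scaled by TMM and tested in edgeR 4.0.16 (R 4.3.3; filterByExpr, estimateDisp, glmQLFit, glmQLFTest), with p-values adjusted by Benjamini-Hochberg across every gene in the fit and 0.05 as the threshold. Each comparison of 2 groups used its 6 livers. The comparison over all livers used 12, with genotype label as a covariate, and the interaction used 12. CPM values share 1 scaling of the 12 livers, and log2 CPM has a prior count of 2. SE is that implied by the F statistic. The fits were tested on simulated data. The 10 genes and all lists were chosen with earlier results of these data known. Of each pathway list the text names up to 5 genes with the smallest unadjusted p over all livers and up to 3 in other comparisons, of marker lists the highest gene, and for 4 genes the 3 most correlated. Genes named beyond this rule (Col5a1, Col12a1 and the called collagens) were chosen after their values were seen. Some genes that the rule names are not reported here.

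Alternatives were DESeq2 1.42.0 (size factors, Wald test), edgeR's newer method, other filters, all 12 livers in 1 fit, a replicate block, limma 3.58.1 on quantile-normalised log2(TPM + 1) or log2(TPM + 0.1), and each liver left out. Leaving out 3 livers that stood apart was added after the data were seen. Intervals and floors cover counting error only. Coordinates are those of GRCm38.p6, the assembly of mm10, from RefSeq, matched by gene identifier for 10 of 10 genes.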

Additional observations from a re-analysis of the deposited data

Results flagged for a closer look

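Dcn stood out because its livers moved in opposite ways under the labels: all 3 WT APAP livers lay above all 3 WT vehicle livers, and all 3 KO APAP livers lay below all 3 KO vehicle livers. The difference between the changes was 1.25 on the log2 scale, and its test, the interaction in edgeR's quasi-likelihood fit of 12 livers, gave an adjusted p of 0.872 and an unadjusted p of 0.00699. Without liver 1 of the WT APAP group the difference was 0.75 ± 0.21 (SE), beside 1.25 ± 0.39 with it. Its adjusted p was 0.980, a value that also depends on the other genes of that fit. The difference was thus smaller without this liver, but not smaller relative to its error.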

How the results depend on the processing

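The number of the 10 genes called in WT after APAP was 0 and became 3 (Postn, Timp1 and Hgf) with DESeq2's Wald test and with all 12 livers in one fit, and it ranged from 0 to 1 when single livers were left out. Under the KO label it was 4, became 2 (Col3a1 and Timp1) with all 12 livers in one fit, and ranged from 2 to 4 without single livers, with 2 left without KO vehicle replicate 2, KO vehicle replicate 3 or KO APAP replicate 3. With vehicle it was 0 and became 4 with DESeq2's Wald test and 1 (Postn) with limma on log2(TPM + 0.1). At an unadjusted p under 0.05 the interaction count of 5 became 3 with the replicate block and 3 without the 3 livers that stood apart, and ranged from 3 to 6 without single livers, with 3 left without WT vehicle replicate 1, KO APAP replicate 1 or KO APAP replicate 2. The cause of these shifts was not tested. Over all livers the 3 calls ranged from 2 to 3. No pairing by replicate number was seen, as 1 of 18 same-numbered pairs correlated above 0.1 (r from -0.264 to 0.107). With 3 livers a group these correlations cannot exclude that livers shared a litter or day. The replicate block took Col1a1 under the KO label to an adjusted p of 0.0991 and Lrat over all livers to 0.0539. No call of the 10 genes turned its direction in any setting run. Over all settings, 27 of the refits of the 10 genes lost a call, 16 gained one and 9 turned the sign of an uncalled value by more than its error. The other 949 kept their side of the threshold, but they include uncalled values whose sign turned by less than their error. No scaling moved the median of all genes by 0.1 or more on the log2 scale. With 3 livers a group, leaving one out leaves 2, and Timp1 rests on few counts.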
